A study of Mus musculus with 8 samples.

Results

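The Hedgehog pathway genes described here are Shh, Ihh, Ptch1, Smo, Gli1, Gli2, Gli3 and Hhip, 8 of the 52636 genes in a deposited expression table of mouse esophageal organoids. They were chosen by gene symbol, and each symbol matched 1 row. Earlier results of these data were known when they were chosen. Organoids, which are small 3-dimensional epithelial cultures, were grown for 13 days in matrigel from dissociated esophagi of wild-type mice. In all, 8 libraries formed 4 groups of 2. The control group, called inhibitor below, received A8301, a blocker of TGFb type I receptor kinases, at 500 nM. BMP4, at 20 ng/ml, was given on top of A8301 in the second group and together with TGFb1 in the fourth. The third group had TGFb1 alone, at 1 ng/ml, the dose also used in the fourth. Treatment ran for 72 h with renewal every 24 h in every group. A8301 is named for the first 2 groups alone, so setting a TGFb1 group against one with A8301 combines the added ligand with the missing inhibitor. How many mice were used, whether they were pooled and what the replicate numbers share is not given in the sources used here, so p-values measure the spread between these libraries, which may be technical.

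In the Hedgehog pathway a secreted ligand (Sonic, Indian or Desert hedgehog, encoded by Shh, Ihh and Dhh) binds the receptor Patched, encoded by Ptch1. This frees the membrane protein Smoothened, encoded by Smo, which acts at the primary cilium on the zinc finger transcription factors Gli2 and Gli3. Gli1, Ptch1 and Hhip, which encodes a ligand-binding antagonist, are transcribed when the pathway is active and serve as its usual readouts. In the foregut the ligands are known from the embryonic epithelium, and renewed pathway activity has been linked to columnar metaplasia of the esophagus.

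Values are CPM, which relate a gene's scaled count to its library's total, and errors beside them are SD with n = 2. Between 28600000 and 43600000 reads per library were inferred from the spacing of the scaled values, and 3 scaled units, equal to 0.15 CPM, were taken as the limit that a 0 allows, for counting error only. By the same inference 1 read made between 0.459 and 0.7005 units, so this limit, set in units and not in reads, is wide. All 10 squamous epithelial markers, Krt5 and Trp63 among them, were above 0 in every library, and their sum lay between 13871 and 24451 CPM. The sum of 12 fibroblast markers ran from 62.3 to 7220 CPM and was higher in replicate 2 of each group. Schwann cell, endothelial and neuroendocrine marker sums did not pass 4.35 CPM, while skeletal muscle markers reached 320 CPM, smooth muscle markers 239.8 CPM and immune markers 131 CPM. Among the immune markers Cd68 reached 130.8 and Lyz2 51.6 CPM, while Ptprc and Cd3e did not pass 0.3 CPM. Of the smooth muscle markers Des reached 192 CPM, Acta2 32.6 CPM and Tagln 14.1 CPM, while Myh11, Cnn1 and Actg2 did not pass 0.35 CPM.

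Both hedgehog ligands among the 8 genes were at or near the counting limit in every group. Shh (chromosome 5, 28456815 to 28467256, GRCm38) was at 0 CPM in all 8 libraries, which allows up to 0.15 CPM in each. Ihh (chromosome 1, 74945315 to 74951672) lay between 0 and 0.2 CPM and was at 0 in 2 libraries. The antagonist gene Hhip (chromosome 8, 79965851 to 80058006) was at 0.2 and 0.15 CPM in the BMP4 + inhibitor libraries and at 0 in the other 6. These are 4 and 3 units, and 1 read made an inferred 0.5465 and 0.596 units in these libraries, so the reads outnumbered the units but were few. Hhip reads were thus counted in this group alone. As the other groups were at 0, no fold difference is given. For Hhip the authors' deposited table gives an FDR of 0.00331, from its own test over all groups, which rests on these 3 and 4 units.

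The receptor, the signal transducer and the 3 Gli factors were measurable. They were listed as Ptch1 (ENSMUSG00000021466), Smo (ENSMUSG00000001761; chromosome 6, 29735503 to 29761365), Gli1 (ENSMUSG00000025407; chromosome 10, 127329882 to 127341974), Gli2 (ENSMUSG00000048402; chromosome 1, 118834132 to 119053619) and Gli3 (ENSMUSG00000021318). Per kilobase of merged exon the mean level over 8 libraries was highest for Smo (27.0 CPM per kb, range 22.0 to 34.6), which did not overlap any other of the 8 genes. Gli3 (3.24 CPM per kb, range 2.37 to 3.80), Ptch1 (2.24, range 1.57 to 4.08) and Gli2 (1.78, range 0.938 to 3.22) followed on the same scale, and the ranges of neighbours overlapped. Gli1 was the lowest of the 5 at 0.408 CPM per kb (range 0.0901 to 1.17), with its highest library above the lowest library of Gli2. By mean CPM, 90.6% of the 16180 tested genes lay below Smo and 14.0% below Gli1. These 5 were tested, having at least 2 libraries at 1 CPM, whereas Shh, Ihh and Hhip had none.

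Promoter sequence is shown for Gli2 and Ptch1, whose libraries were all higher with BMP4 under inhibition, and for Gli3, the paralog of Gli2 whose libraries overlapped there. Smo was also higher in both BMP4 libraries there, and its window is not shown. Each run is the 250 bases before the RefSeq start, read 5′ to 3′ on the gene's strand (GRCm38.p6), and capitals mark GGCGCC, the GC-rich SMAD element.
Gli2 (chr1:119053620-119053869, minus strand): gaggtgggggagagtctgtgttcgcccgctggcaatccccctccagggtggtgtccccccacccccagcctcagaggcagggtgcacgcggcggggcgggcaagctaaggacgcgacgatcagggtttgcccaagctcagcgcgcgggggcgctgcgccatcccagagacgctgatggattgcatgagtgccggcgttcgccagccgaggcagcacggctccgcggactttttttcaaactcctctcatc
Ptch1 (chr13:63565736-63565985, minus strand): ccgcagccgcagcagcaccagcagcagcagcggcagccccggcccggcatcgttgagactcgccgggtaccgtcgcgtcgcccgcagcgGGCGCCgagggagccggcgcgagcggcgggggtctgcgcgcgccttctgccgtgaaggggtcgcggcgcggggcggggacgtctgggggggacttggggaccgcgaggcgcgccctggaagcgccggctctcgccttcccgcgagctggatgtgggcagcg
Gli3 (chr13:15463473-15463722, plus strand): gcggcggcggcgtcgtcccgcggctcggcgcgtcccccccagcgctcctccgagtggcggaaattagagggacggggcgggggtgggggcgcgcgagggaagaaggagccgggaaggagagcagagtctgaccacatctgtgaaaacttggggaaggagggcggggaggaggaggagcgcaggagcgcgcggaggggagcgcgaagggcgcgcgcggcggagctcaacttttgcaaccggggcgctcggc
The 3 windows held between 67.2 and 78.4% G and C and 0 bases of the genes' own annotated exons. Their coordinates place the Ptch1 window inside the longer annotated gene (63508328 to 63573598), and the Gli3 window likewise (15463235 to 15730026). RefSeq's table held windows for 6 of the 8 genes, all but Shh and Gli1. For Smo and Hhip the bases after the RefSeq start were not found in an annotated transcript of the gene. None of the 6 held the GLI binding sequence GACCACCCA or its core CCACCCA on either strand, against 0.225% and 8.11% of 32851 promoter windows of the same length. The core lies within the longer sequence, so every match to the longer one is also counted for the core. GGCGCC, which reads the same on both strands, was found once, in Ptch1, 161 bases before the start, against 9.59% of all windows. A match describes the letters of this window alone.

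The first comparison addressed what BMP4 did while TGFb receptors were blocked. Gli2, a main activator of Hedgehog target genes, was at 7.80 and 9.10 CPM in the inhibitor libraries and at 22.1 and 18.3 CPM with BMP4. The groups did not overlap. Gli2 rose from 8.45 ± 0.919 to 20.2 ± 2.68 CPM, 2.40-fold, a log2 difference of 1.17 ± 0.22 (SE, on log2(CPM + 1); adjusted p = 0.0273). It was the only member of 5 called, in a comparison that called 8.41% of all tested genes, 5.49% as higher and 2.91% as lower. Of the 5 members, 3 had an unadjusted p under 0.05.

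Gli1, the target gene most used as a readout of the pathway, was at 1.80 and 1.15 CPM without BMP4 and at 5.85 and 3.85 CPM with it. Every BMP4 library lay above every inhibitor library, and the means of 1.47 ± 0.460 and 4.85 ± 1.41 CPM stood 3.29-fold apart. The log2 difference was 1.23 ± 0.34, with adjusted p = 0.0787, or 0.0469 with the replicate number as a block. Ptch1, which encodes the ligand receptor and is itself a target, was at 28.7 and 29.1 CPM and at 57.9 and 37.2 CPM. Here too the groups were apart, and the BMP4 libraries differed from each other by more than the inhibitor libraries did. Its log2 difference was 0.66 ± 0.21 (adjusted p = 0.101, and 0.0352 with the block), and ran from 0.35 without BMP4 + inhibitor replicate 1 to 0.98 without replicate 2 of that group. With the block 3 of 5 members were called higher, against 11.8% of all tested genes, and 0 lower, against 9.85%.

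Smo was at 137 and 161 CPM without BMP4 and at 194 and 168 CPM with it, a log2 difference of 0.28 with a 95% interval from -0.04 to 0.59 (adjusted p = 0.234). Gli3, which mainly acts as a repressor when no ligand is present, was at 32.0 and 34.2 CPM and at 36.5 and 29.7 CPM. The Gli3 groups overlapped, and the interval of the log2 difference ran from -0.42 to 0.41. Gli2 and Gli3 thus had intervals of 0.64 to 1.69 and -0.42 to 0.41, and their difference from each other was not tested. The Gli2 call was lost without inhibitor replicate 1 (adjusted p = 0.142), inhibitor replicate 2 (0.122) or BMP4 + inhibitor replicate 1 (0.147), with no filter (0.0592) and with the compared groups fitted alone (0.0522). Fibroblast markers moved with this comparison, their sum being 62.3 and 157 CPM in the inhibitor libraries and 167.8 and 539 CPM with BMP4. All 12 markers were above 0 in every library, and the part of the sum in the result was not tested. In bulk RNA fewer cells of a type and less RNA per cell cannot be told apart.

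**Figure D1:**
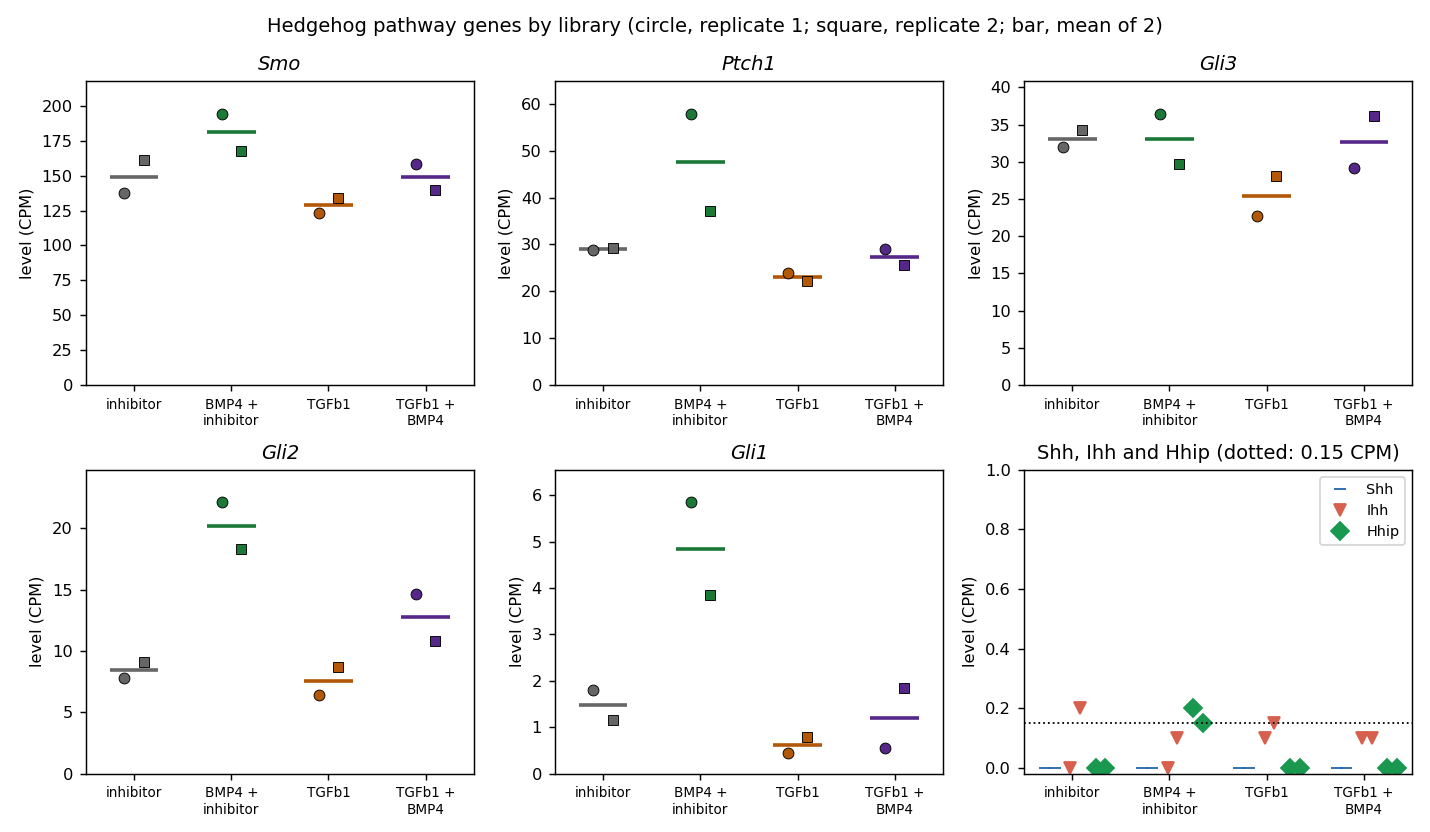
Level in CPM of the 8 Hedgehog pathway genes in each library of the 4 treatment groups. Circles are replicate 1, squares replicate 2 and bars the mean of 2 libraries, and in the last panel 1 symbol stands for 1 library. Gli2, Gli1, Ptch1 and Smo were highest in both BMP4 + inhibitor libraries, while Shh was at 0 throughout. Those levels were 18.3 CPM or more for Gli2, 3.85 for Gli1, 37.2 for Ptch1 and 167.8 for Smo.

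With TGFb1 in place of the inhibitor, 0 of the 5 tested members were called by limma in either direction, 0 had an unadjusted p under 0.05, and 40% of all tested genes were called. Gli1 was at 0.450 and 0.799 CPM with TGFb1, below both inhibitor libraries (log2 difference -0.60 ± 0.34, adjusted p = 0.200). Near 1 CPM log2(CPM + 1) understates differences, and with a pseudocount of 0.1 it was -1.13. Ptch1, at 23.9 and 22.2 CPM, and Smo, at 124 and 134 CPM, were also below both inhibitor libraries, with log2 differences of -0.32 ± 0.21 and -0.21 ± 0.13 (adjusted p = 0.255 and 0.246). Gli3 was at 22.7 and 28 CPM, and the interval of its log2 difference ran from -0.79 to 0.04. Gli2, at 6.45 and 8.69 CPM, overlapped the inhibitor libraries. The members' median log2 difference was -0.32, against -0.01 over all tested genes. The fibroblast marker sum, at 1462 and 5075 CPM, was above both inhibitor libraries, and its part in these values was not tested.

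Organoids given TGFb1 and BMP4 together differed from the inhibitor group in none of the 5 members by limma, with 1 of 5, Gli2, at an unadjusted p under 0.05, and 46% of all tested genes called. Gli2 was at 14.6 and 10.8 CPM, above both inhibitor libraries (log2 difference 0.53 ± 0.22, adjusted p = 0.0867). Ptch1, at 29.0 and 25.6 CPM, Smo, at 158 and 139.5 CPM, and Gli3, at 29.1 and 36.1 CPM, each overlapped the inhibitor group. The Gli1 libraries of this group stood apart from each other, at 0.550 and 1.85 CPM, and enclosed both inhibitor values. Median-of-ratios scaling, in place of the library total, moved the median log2 difference of all tested genes here from 0.13 to 0.01. No direction of a member in any comparison turned with that scaling.

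Adding BMP4 to TGFb1 gave 0 called members of 5 by limma, with 1 at an unadjusted p under 0.05. Of all tested genes 2.01% were called, 0.921% higher and 1.09% lower. Gli2 was higher in both libraries with BMP4, a log2 difference of 0.68 ± 0.22 (adjusted p = 0.166, 95% interval 0.16 to 1.2). Gli1 differed by 0.38 ± 0.34 on that scale and the groups overlapped. Differences of Ptch1, Smo and Gli3 lay between 0.20 and 0.35. The median over all tested genes was 0.13 here, and 0.01 with median-of-ratios scaling. The test of whether the BMP4 effect differed between the TGFb1 and inhibitor settings, the interaction, called 0 of 5 members by limma, with 0 at an unadjusted p under 0.05, and 1.29% of all tested genes. For Gli1 the interaction was -0.85 with an interval from -2.02 to 0.31, and for Gli2 -0.49 with an interval from -1.23 to 0.25. A different BMP4 effect on these genes in the TGFb1 setting was therefore neither called nor bounded closely.

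Gli1 and Ptch1 were lower with TGFb1 and BMP4 than with BMP4 and the inhibitor. Gli1 fell from 4.85 ± 1.41 to 1.2 ± 0.919 CPM, a log2 difference of -1.45 ± 0.34 (adjusted p = 0.0233). For Gli1 both BMP4 + inhibitor libraries lay above both TGFb1 + BMP4 libraries. Ptch1 fell from 47.6 ± 14.6 to 27.3 ± 2.40 CPM, a log2 difference of -0.75 ± 0.21 (adjusted p = 0.0373). In total 0 members were called higher and 2 of 5 lower, in a comparison that called 28.2% of all tested genes, 17.3% higher and 10.9% lower. Gli2 was lower in both libraries, with a log2 difference of -0.64 ± 0.22 (adjusted p = 0.0727), Smo differed by -0.28 ± 0.13 (adjusted p = 0.161), and the interval for Gli3 ran from -0.44 to 0.40. Leaving out BMP4 + inhibitor replicate 1 ended both calls (adjusted p = 0.0902 for Gli1 and 0.0814 for Ptch1) and moved the Ptch1 difference to -0.44. They also ended without TGFb1 + BMP4 replicate 1 (0.0763 and 0.0804), with no filter (0.0556 and 0.0709) and with the compared groups alone (0.0763 and 0.118), and that of Ptch1 without TGFb1 + BMP4 replicate 2 (0.1498). The fibroblast marker sum was higher here, at 1514 and 7220 CPM against 167.8 and 539 CPM, with all 12 markers above 0 in every library, and its part in the result was not tested. The comparisons share groups, so the Gli1 and Ptch1 values of the BMP4 + inhibitor libraries enter both this fall and the difference from the inhibitor group.

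**Figure D2:**
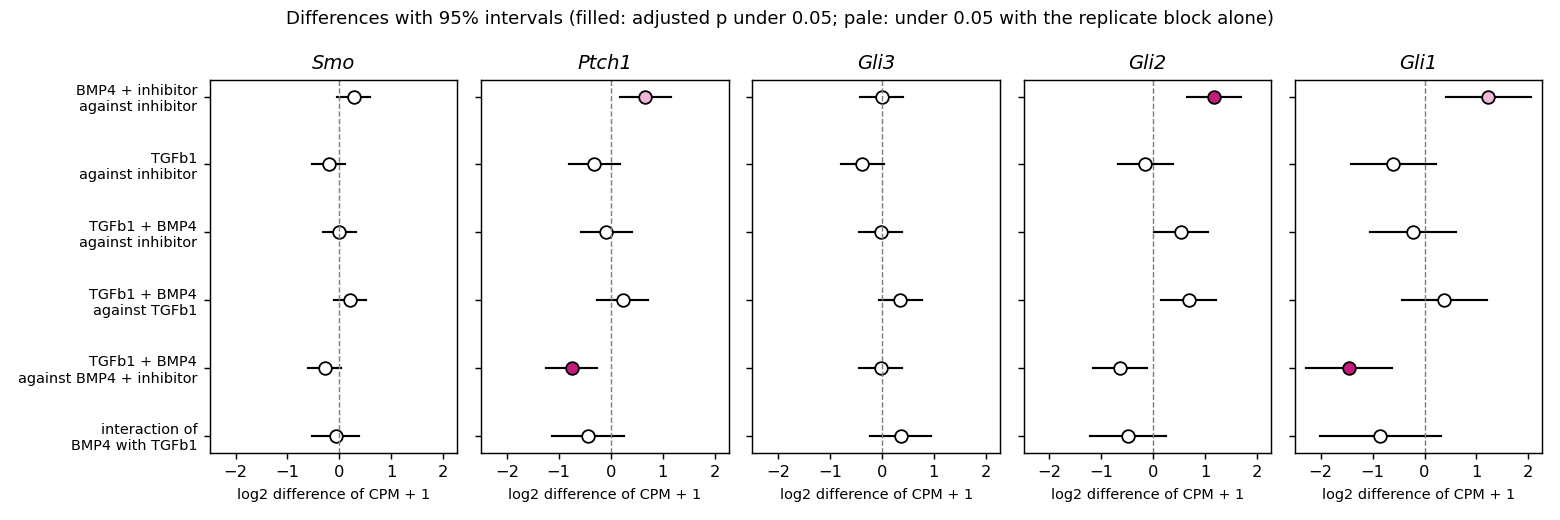
Log2 differences of CPM + 1 for the 5 tested members (columns) in the 5 comparisons of groups and the interaction (rows). Points are estimates and lines 95% intervals from limma, filled at an adjusted p under 0.05 and pale where this holds with the replicate block alone. Gli2 was called for BMP4 under inhibition at 1.17, and Gli1 and Ptch1 for TGFb1 + BMP4 against BMP4 + inhibitor at -1.45 and -0.75.

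Gli1 overlaps exons of Arhgap9 and Gm47200 on the opposite strand, and the strand setting of the counting is not given in the sources used here. Arhgap9 lay between 1.05 and 1.60 CPM in all libraries, and Gm47200 was not analysed here. Gm6556, which overlaps Gli3 on the opposite strand, did not pass 0.4 CPM. Ptch1, Smo and Gli2 overlapped no annotated exon of another gene. Opposite-strand genes at Shh (9530036O11Rik and Gm26894) and at Hhip (Gm27820) were at 0 in all 8 libraries.

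The genes most alike in pattern were taken by Pearson correlation of log2(CPM + 1) over the 8 libraries, among all tested genes. These libraries share groups and replicate numbers, so the values are descriptions. For Gli1 the highest was Foxf2, a forkhead factor gene of gut mesenchyme known as a Hedgehog target (r = 0.986), followed by Dclre1c (0.976) and Lcat (0.974). Gli2 was most like Lsm6 (0.980) and Dock8 (0.967). For Ptch1 the most alike were Isl2 (0.982), Rtl10 (0.972) and Tmem221 (0.965), for Smo Pithd1 (0.964), Dck (0.959) and Mir5046 (0.955), and for Gli3 Per2 (0.956), Mmp24 (0.951) and Mob4 (0.941). Among the members themselves r ran from 0.482 for Gli2 with Gli3 to 0.906 for Ptch1 with Smo, and was 0.869 for Gli1 with Ptch1.

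Foxf2 was at 5.40 and 3.70 CPM in the inhibitor libraries, 14.2 and 11.3 CPM with BMP4, 2.10 and 3.6 CPM with TGFb1, and 3.3 and 6.05 CPM with both. Foxf2 was picked here for its likeness to Gli1 over these libraries, so these levels are a description. It is also on the list of known targets below and was tested there. For BMP4 under inhibition limma gave an adjusted p of 0.0572, or 0.0311 with the block. Foxf2 was called lower in TGFb1 + BMP4 against BMP4 + inhibitor (-1.31 ± 0.33, adjusted p = 0.0273). This Foxf2 call was lost without either BMP4 + inhibitor library or TGFb1 + BMP4 replicate 1. Its paralog Foxf1, another known target, was between 0.799 and 1.85 CPM in every replicate 1 library and between 4.95 and 6.35 CPM in every replicate 2 library. Foxf1 followed the replicate number, and its log2 difference in BMP4 + inhibitor against inhibitor was 0.00 ± 0.88. The fibroblast sum was likewise higher in replicate 2 of each group. Unlike Foxf1, whose group means lay between 3.15 and 3.70 CPM, that sum was also higher in the TGFb1 groups than in the inhibitor groups.

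**Figure D3:**
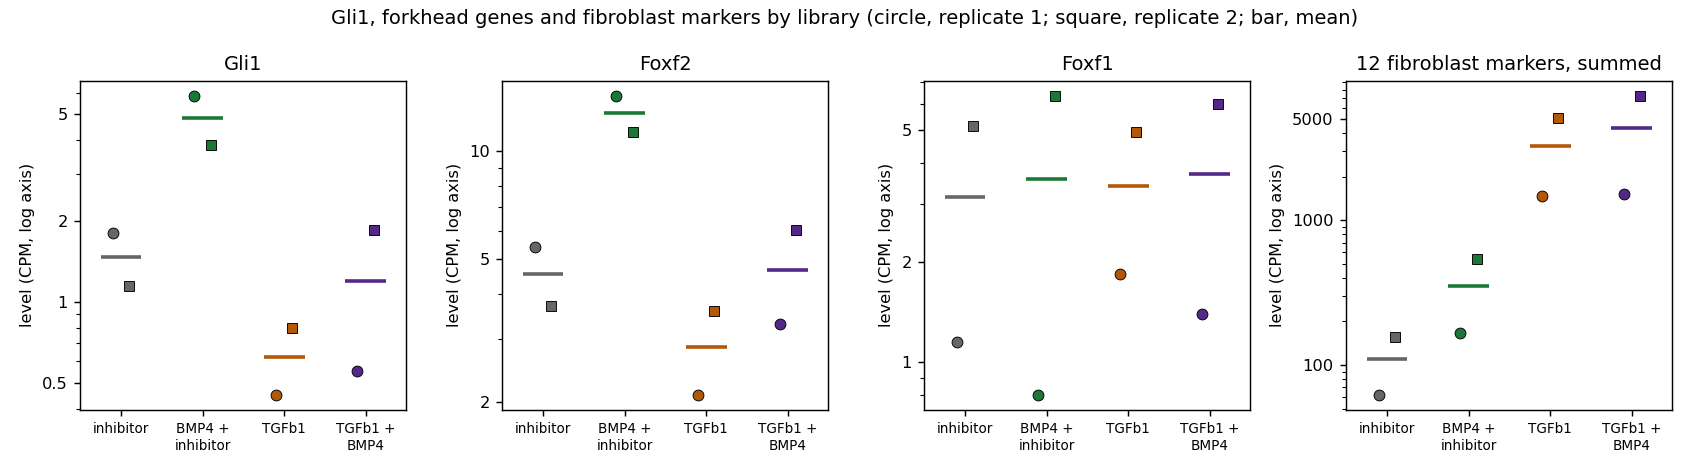
Level in CPM, on log axes, of Gli1, Foxf2, Foxf1 and the sum of 12 fibroblast markers in each library. Circles are replicate 1, squares replicate 2 and bars group means. Gli1 and Foxf2 were highest in the BMP4 + inhibitor group, Foxf1 was at 4.95 CPM or more in all replicate 2 libraries alone, and the fibroblast sum was highest with TGFb1, up to 7220 CPM.

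Other genes of the pathway were taken from a list of 32, of which 30 were tested. Under inhibition BMP4 raised 6 of these 30 and lowered 0, against 5.49% and 2.91% of all tested genes, with a median log2 difference of 0.20 against 0.02 over all tested genes. Kif7, which encodes a ciliary kinesin that regulates Gli processing, was at 4.50 and 4.55 CPM without BMP4 and at 24.4 and 19.8 CPM with it. It rose by 2.06 ± 0.16 (adjusted p = 0.00219), and it alone of the 6 kept its call with each library left out. Gpr161, which encodes a ciliary receptor that restrains the pathway, rose from 40.8 ± 3.43 to 85.0 ± 20.7 CPM (adjusted p = 0.0245). The call was lost without either inhibitor library (highest adjusted p = 0.134). Stk36, a kinase gene named for its Drosophila relative fused, which acts in Hedgehog signalling, rose from 1.35 ± 0.424 to 5.00 ± 1.91 CPM (adjusted p = 0.03). Sufu, which encodes a protein that binds and restrains Gli factors, rose from 40.1 ± 0.670 to 65.3 ± 14.3 CPM (adjusted p = 0.0479). The Stk36 and Sufu calls were lost without either inhibitor library or BMP4 + inhibitor replicate 1 (highest adjusted p = 0.151 and 0.217).

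Dhh, the Desert hedgehog gene, lay between 0.550 and 1.75 CPM in all libraries and was at 1.75 and 1.35 CPM without and 0.650 and 0.550 CPM with BMP4 (adjusted p = 0.0968, and 0.0309 with the block). Dhh also lay lower in both TGFb1 groups than in the inhibitor group, by -0.47 and, with BMP4, -0.57 (adjusted p = 0.1095 and 0.0583, and 0.0468 and 0.0218 with the block). Its level was near the 1 CPM filter, where log2(CPM + 1) understates differences, and it did not pass the test without the block. With the block 9 of the 30 were called higher and 3 lower, against 11.8% and 9.85% of all tested genes.

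TGFb1 against the inhibitor raised 8 of the 30 and lowered 4, with 20% of all tested genes called in each direction. The fibroblast marker sum stood at 62.3 and 157 CPM in the inhibitor libraries, against 1462 and 5075 CPM with TGFb1 and 1514 and 7220 CPM with both ligands, and its part in these counts was not tested. Gpr161 fell from 40.8 ± 3.43 to 11.3 ± 0.0354 CPM (adjusted p = 0.0012), the opposite of its change with BMP4. Csnk1a1, which encodes a casein kinase that phosphorylates Gli factors, fell from 811.7 ± 23.6 to 385 ± 40.5 CPM (adjusted p = 0.0024). Gas1, which encodes a co-receptor for the ligands, rose from 5.87 ± 1.02 to 20.7 ± 1.17 CPM (adjusted p = 0.00249). These 3 calls held with each library left out. With both ligands 14 of the 30 rose and 5 fell against the inhibitor, with 27.6% of all tested genes called higher and 18.4% lower. Scube3, of the family of secreted proteins that help release hedgehog ligands, rose from 0.450 ± 0.354 to 128 ± 8.91 CPM (adjusted p = 0.00037). Btrc, which encodes an F-box protein of Gli degradation, rose from 11.7 ± 0.530 to 31.9 ± 1.13 CPM, and Kif7 from 4.52 ± 0.0354 to 14.2 ± 0.212 CPM (adjusted p = 0.000803 and 0.000841).

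BMP4 added to TGFb1 raised 2 of the 30 and lowered 0, with 0.921% of all tested genes called higher. They were Kif7, from 4.75 ± 0.283 CPM with TGFb1 alone to 14.2 ± 0.212 CPM (1.41 ± 0.16, adjusted p = 0.0162), and Spop, which encodes a ubiquitin ligase adaptor for Gli factors, from 208 ± 14.0 to 339 ± 8.11 CPM (adjusted p = 0.0330). Both calls were lost with any 1 of the 4 libraries left out (highest adjusted p = 0.0930 and 0.190). Kif7 was thus higher with BMP4 in 2 of 2 libraries in either setting, and the interaction for it was -0.65 ± 0.22 (adjusted p = 0.208). TGFb1 + BMP4 against BMP4 + inhibitor raised 10 of the 30 and lowered 5, with 17.3% of all tested genes called higher and 10.9% lower. The smallest adjusted p-values were those of Gpr161, lower at 13.8 ± 1.45 against 85.0 ± 20.7 CPM (0.000512), Scube3, higher at 128 ± 8.91 against 9.69 ± 7.00 CPM (0.00391), and Csnk1a1, lower at 359 ± 9.74 against 693 ± 106 CPM (0.00475). For the interaction limma called 0 of the 30, against 1.29% of all tested genes, with 8 at an unadjusted p under 0.05. With the block 2 were called lower, against 4.26% of all tested genes.

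Genes known elsewhere as Hedgehog targets were taken from a list of 15, of which 11 were tested and Foxl1, Mycn, Hsd11b2 and Nkx2-2 were too low. In BMP4 + inhibitor against inhibitor limma called 0 of the 11, against 8.41% of all tested genes, with 3 at an unadjusted p under 0.05. With the block it called 1 higher, Foxf2, and 2 lower, Ccnd1 and Bcl2, against 11.8% and 9.85% of all tested genes. The median log2 difference of the 11 was -0.03, against 0.02 over all tested genes. Bmp4, known as a target in gut mesenchyme, did not pass 1.5 CPM in any library and was at 0.1 CPM in both libraries given BMP4 with the inhibitor. With TGFb1 against the inhibitor 1 of the 11 targets rose, Sox9, and 2 fell, against 20% of all tested genes in each direction. With the block 2 rose and 3 fell, against 26.7% and 26.4% of all tested genes. Sox9, a transcription factor gene also active outside this pathway, rose from 27.7 ± 3.00 to 114.5 ± 38.5 CPM (adjusted p = 0.00179). The cyclin gene Ccnd2 fell from 443.6 ± 28 to 216 ± 4.17 CPM (adjusted p = 0.0329) and the forkhead gene Foxe1 from 14.1 ± 1.03 to 6.52 ± 1.80 CPM (adjusted p = 0.0416), and both calls were lost with any 1 library left out (highest adjusted p = 0.1402 and 0.176). With both ligands against the inhibitor the same 3 genes were called, Sox9 higher by 2.59 ± 0.24, Ccnd2 lower at 156 ± 43.0 CPM and Foxe1 lower at 5.20 ± 2.54 CPM (adjusted p = 0.000466, 0.00737 and 0.0146), the last lost without either inhibitor library or TGFb1 + BMP4 replicate 2 (0.0762). Of all tested genes 27.6% were called higher and 18.4% lower in that comparison. With the block 4 targets fell there, against 23.7% of all tested genes. BMP4 added to TGFb1 gave 0 called targets by limma, against 2.01% of all tested genes, with 2 at an unadjusted p under 0.05. With the block 1 target was called lower, against 3.38% of all tested genes. TGFb1 + BMP4 against BMP4 + inhibitor raised 2 of the 11 and lowered 4, against 17.3% and 10.9% of all tested genes. There Foxe1 fell from 22.5 ± 3.64 to 5.20 ± 2.54 CPM (adjusted p = 0.0061), a call that held with each library left out. Sox9 rose in that comparison by 3.03 ± 0.24 (adjusted p = 0.000616), and Ccnd2 fell, with a log2 difference of -1.40 (adjusted p = 0.0158), a call lost without TGFb1 + BMP4 replicate 1 (0.0685). For the interaction limma called 0 of the 11, against 1.29% of all tested genes, with 1 at an unadjusted p under 0.05. Called targets thus moved in both directions, and no test of the list as a whole was made.

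**Figure D4:**
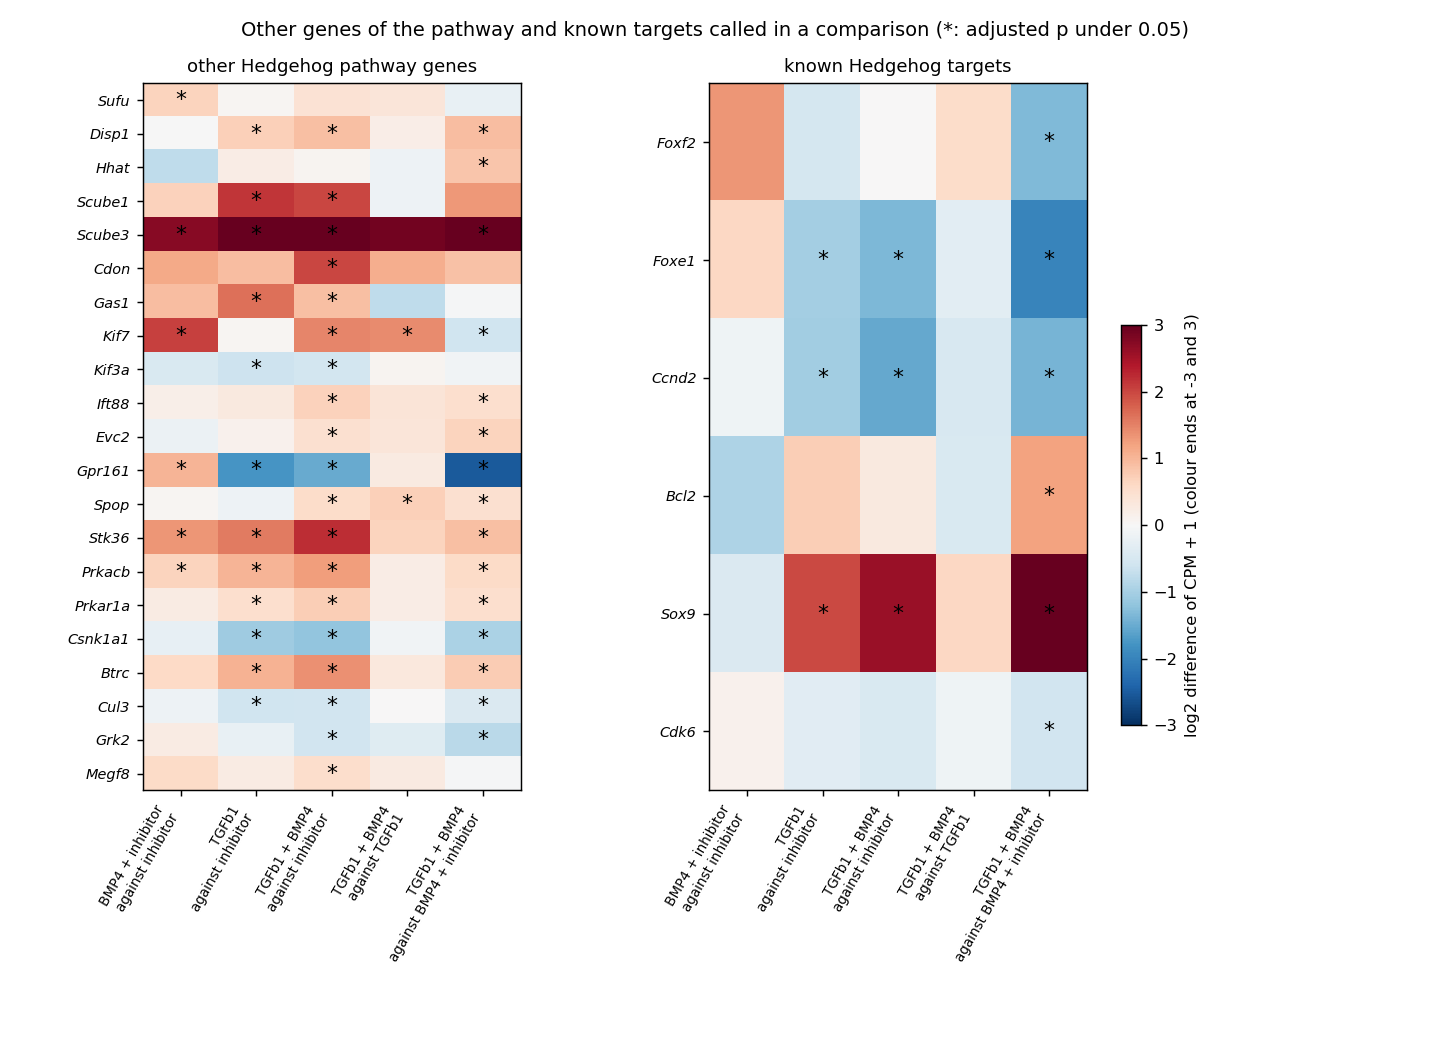
Log2 differences of CPM + 1 for genes of the pathway outside the 8 members (left) and known targets (right) in the 5 comparisons of groups, showing those called in at least 1 of them. Colour gives the difference, ending at -3 and 3, and asterisks mark an adjusted p under 0.05. Kif7 is marked in both comparisons that add BMP4, and Gpr161 is higher with BMP4 under inhibition and lower in the TGFb1 groups against either inhibitor group.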

How the data were processed

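RNA was sequenced from 8 organoid libraries. Per the submitters' processing notes, the tools were Cell Ranger 3.1.0, edgeR, HTSeq and STAR 2.5.3a on builds mm10 and GRCm38, their roles unstated. The strand setting was, like the annotation, not given in the sources used here. Whole-number columns, as deposited, are a score, read counts that the authors scaled to nearly one total and rounded up, as inferred from column sums of 20011215 to 20013233. The deposited CPM relate these units to their column sum. The log2 fold changes, p-values and FDR are the authors' own deposited results, from a single test across groups for each gene, and were quoted for Hhip alone. A second sheet held the same values.

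Because the values are scaled, limma 3.58.1 in R 4.3.3 was used instead of a count test (trend, log2(CPM + 1), two-sided). The 16180 genes with 2 or more libraries at 1 CPM were tested, with group as the only term, 4 residual degrees of freedom and Benjamini-Hochberg adjustment over all tested genes within each of 6 comparisons (threshold 0.05). The fit was tested on simulated data. Gene positions and merged exon lengths came from GENCODE M21 (GRCm38) and promoters from RefSeq (GRCm38.p6). The members, lists and tests were chosen with earlier results of these data known. From each list up to 3 called genes per comparison were named by smallest adjusted p, with Dhh, Sufu, Foxf1 and Bmp4 always named. Ccnd1, Bcl2 and the untested targets were named after their values were seen. For each tested member the 3 most correlated genes were named, leaving out predicted genes. Some items these rules take are not reported here. Replicates differed by a chi-square per gene of 24.2 to 49.6, so they were distinct libraries.

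Replicate numbers came from the labels. Deviations from group means correlated between same-numbered libraries at 0.324 to 0.738 over 6 group pairs. As each exceeded 0.1, results of a fit that adds the replicate number as a block stand beside those whose call it changes. Alternatives were the block, a pseudocount of 0.1, no filter, 1 CPM in 4 libraries, median-of-ratios scaling, the compared groups alone, a minimum log2 difference of 1 and each library left out.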

Additional observations from a re-analysis of the deposited data

How the results depend on the processing

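Pseudocount, stricter filter and median-of-ratios scaling left every member's call and direction as it was. The pseudocount of 0.1 moved Gli1, near 1 CPM, to 1.65 for BMP4 under inhibition, -1.13 for TGFb1, -0.45 for both ligands, 0.68 for BMP4 added to TGFb1, -2.11 for TGFb1 + BMP4 against BMP4 + inhibitor and -0.97 for the interaction. The replicate block raised the members called for BMP4 under inhibition from 1 to 3 and changed no other member call. It raised the genes called from 1360 to 3502 there, from 326 to 1121 for BMP4 added to TGFb1 and from 208 to 1117 for the interaction. With no filter these 3 counts were 751, 80 and 27, and Gli2 was not called for BMP4 under inhibition. The only member called in each of the 2 comparisons with the BMP4 + inhibitor group was then Hhip, 1 in place of 2 in TGFb1 + BMP4 against BMP4 + inhibitor. These Hhip calls set 3 and 4 units against libraries all at 0, which have no spread, so their p-values carry no weight. On the compared groups alone limma called 0 members in both comparisons that had calls, with 581 genes called for BMP4 under inhibition, 2378 for TGFb1 + BMP4 against BMP4 + inhibitor, and 0 for BMP4 added to TGFb1 (3088 at an unadjusted p under 0.05). A minimum log2 difference of 1 left 835 genes for BMP4 under inhibition, 3065 for TGFb1 against inhibitor, 3832 for both ligands against inhibitor, and 2341 genes and 1 member, Gli1, for TGFb1 + BMP4 against BMP4 + inhibitor. The cause of these differences was not tested.

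With each library left out, members called ran from 0 to 2 both for BMP4 under inhibition and for TGFb1 + BMP4 against BMP4 + inhibitor. Genes called ran from 188 to 2300 for BMP4 under inhibition, 3102 to 4055 for TGFb1, 4493 to 5773 for both ligands, 19 to 158 for BMP4 added to TGFb1, 2424 to 3839 for TGFb1 + BMP4 against BMP4 + inhibitor and 0 to 602 for the interaction. Ptch1 was called for BMP4 under inhibition without BMP4 + inhibitor replicate 2 (adjusted p = 0.0151). Differences that changed sign in this way were all uncalled. Gli3 ran from -0.15 to 0.14 for BMP4 under inhibition, from -0.18 to 0.12 for both ligands and from -0.17 to 0.13 for TGFb1 + BMP4 against BMP4 + inhibitor. Gli2 ran from -0.34 to 0.041 for TGFb1. For both ligands Ptch1 ran from -0.17 to 0.0024, Smo from -0.12 to 0.11 and Gli1 from -0.66 to 0.22. Gli1 ran from -0.059 to 0.82 for BMP4 added to TGFb1, and Smo from -0.19 to 0.0404 for the interaction. List calls kept with each library left out numbered 1 of 6, 8 of 15, 12 of 22, 0 of 2 and 5 of 21 in the 5 comparisons. With 2 libraries a group, and Gli1 near 1 CPM, small differences could not be resolved at this depth.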
